A study of Mus musculus with 8 samples.

Results

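The mouse genes of the Wnt ligands, of the proteins that prepare Wnts for release, and of the Wnt receptors were followed in ATCL7 cells, an immortalized line from a mouse adrenocortical tumour, after treatment with BIO. The genes were chosen by symbol in the deposited annotation, and 37 of 20719 genes with a symbol met the rule: 19 Wnt ligands, the secretion genes Porcn and Wls, 10 Frizzled receptors, the coreceptors Lrp5 and Lrp6, and the kinase-like receptors Ror1, Ror2, Ryk and Ptk7. Each was read by 1 probe set. The BIO group was male ATCL7 cells kept for 24 h in 0.5 µM BIO, a brominated indirubin oxime that inhibits glycogen synthase kinase 3 (GSK3) and is also a known ligand of the aryl hydrocarbon receptor. The vehicle group was the same line kept for 24 h in 0.01% DMSO. Both were held in medium with 0.025% each of fetal bovine and horse serum, against 2.5% each during growth. The titles put the 8 samples in 4 numbered pairs, each with 1 BIO and 1 vehicle array (Affymetrix Mouse Gene ST). ATCL7 is a single line. No label says whether a pair was its own culture, and a p-value here measures no more than the spread among these 8 samples, part of which may be technical.

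Wnt proteins are secreted lipoproteins. The acyltransferase Porcn attaches the lipid, and Wls carries the finished ligand to the cell surface. A Wnt that engages a Frizzled receptor together with Lrp5 or Lrp6 stops the GSK3-containing complex that marks β-catenin for destruction, whereas Ror1, Ror2, Ryk and Ptk7 are known mostly for signalling that does not run through β-catenin. In the adrenal cortex, Wnt/β-catenin signalling is known for its role in the outer zone and in the progenitor cells beneath the capsule. BIO acts on GSK3, below the ligands and receptors described here.

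Values are deposited RMA values on the log2 scale, so a difference of 1 is a doubling of signal. Differences are BIO minus vehicle, estimated with limma with the pair as a block, and "passed" means an adjusted p below 0.05 over all 20719 genes. Array medians lay between 6.41 and 6.47. Axin2, the feedback inhibitor that β-catenin induces, averaged 9.14 ± 0.12 in BIO and 6.13 ± 0.07 in vehicle (SD, n = 4). Of 8 markers of steroid-producing adrenocortical cells, 7 read above the level defined below on the mean over all arrays, and all 8 fell with BIO. Their summed log2 values were 60.73 to 63.54 in BIO and 67.93 to 71.72 in vehicle, and whether that loss bears on the genes described here was not tested. One of them, Nr5a1, the steroidogenic master regulator, differed by −0.51 ± 0.05 (SE, adjusted p = 7.78e-05). Among markers of other cell types, 1 of 4 endothelial, 1 of 5 macrophage and leukocyte, 3 of 5 fibroblast and 2 of 5 chromaffin markers read above that level. Of these 19, only the macrophage and lysosome gene Cd68 (−0.45 ± 0.05, adjusted p = 0.00016) and the fibroblast collagen gene Col1a1 (−0.23 ± 0.06, adjusted p = 0.0145), both named after their values were seen, passed. Cd68 was not dim: it averaged 7.25 in BIO and 7.70 in vehicle, above the median of all genes (6.44). The Col1a1 call was lost without replicate 2 or 4 (adjusted p = 0.0599 and 0.0573).

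Ligands and receptors fell more often than they rose. Of the 37 genes, 13 fell (35.1%), 3 rose (8.11%) and 21 did not pass, where over all genes 15.6% fell and 17% rose. In a bulk sample, fewer cells that express a gene and less RNA per cell cannot be told apart. The shares that passed in either direction were 43.2% of the 37 and 32.7% of all genes. Of the 37 genes, 18 moved the same way in 4 of 4 pairs (16 lower and 2 higher), where 47% of all genes moved one way in every pair. The groups did not overlap for 11: 9 were lower, where 12.9% of all genes were, and 2 were higher, where 14.1% were. The median difference was −0.13 for the 37 genes and −0.01 for all genes. Falls of at least 1.5-fold occurred for 4 of the 37, Fzd8, Wnt10a, Wnt11 and Ror1, and for 3.3% of all genes, while none of the 37 rose by that much (2.19% of all genes did).

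**Figure D1:**
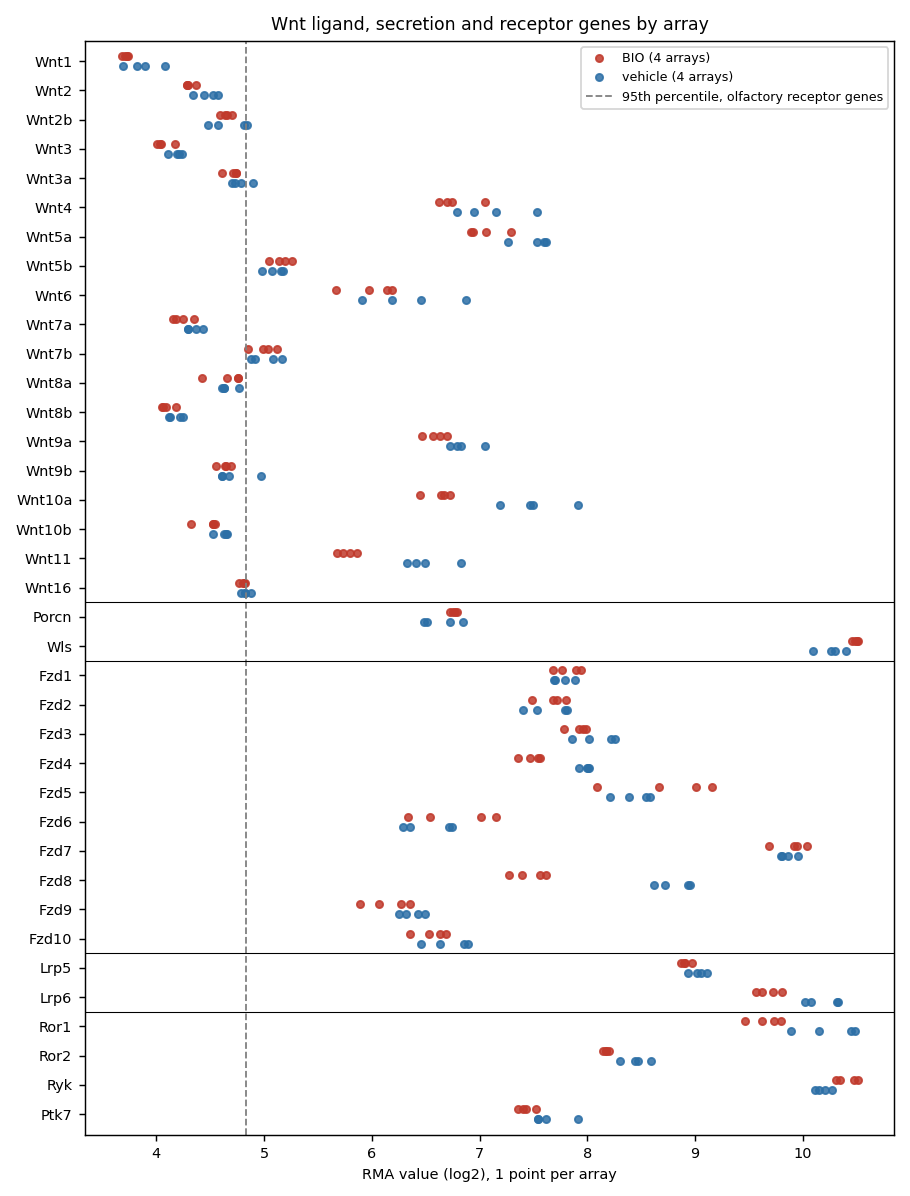
RMA value (log2, x axis) of each of the 37 genes (y axis, grouped by role from ligands at the top to kinase-like receptors at the bottom), with 4 BIO arrays (red, upper row of each gene) and 4 vehicle arrays (blue, lower row). The dashed line at 4.83 is the 95th percentile of the mean over all arrays for 1097 olfactory receptor genes. The means of 11 ligands lie at or left of it, while all receptors lie to its right; probe sets differ in binding, so values are not compared between genes.

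Since the files hold no detection call, the mean of each gene over all arrays was set against the 95th percentile of the 1097 olfactory receptor genes, which adrenal cells are not known to express. That level was 4.83. Over all genes, 45.8% of those above it and 5.61% of those at or below it passed. All 18 receptor and secretion genes were above it, as were 8 of the 19 ligands. The other 11 ligands, Wnt1, Wnt2, Wnt2b, Wnt3, Wnt3a, Wnt7a, Wnt8a, Wnt8b, Wnt9b, Wnt10b and Wnt16, were at or below it. Among them are Wnt1 and Wnt3a, the best-known activators of β-catenin. Their group means ran from 3.71 to 4.80 in BIO and from 3.87 to 4.83 in vehicle, and none passed (differences −0.16 to −0.01, adjusted p = 0.0721 to 0.929). All 11 estimates were below 0, as were 62.5% of those of the olfactory receptor genes. At such values RMA understates changes, and whether these ligands are transcribed cannot be read from the arrays.

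Among the 8 ligands above that level, 6 fell (75%, where 21.3% of all genes above it fell), none rose, and Wnt5b and Wnt7b did not pass. The 6 were Wnt10a, Wnt11, Wnt5a, Wnt6, Wnt4 and Wnt9a. Wnt10a, a ligand of skin appendage and tooth development, read 6.67, 6.45, 6.64 and 6.73 in BIO, against 7.47, 7.19, 7.50 and 7.91 in vehicle. The groups did not overlap, as for 27% of all genes, and each BIO array was lower than its own vehicle array. The difference was −0.90 ± 0.07 (SE), a 1.86-fold fall (adjusted p = 5.29e-05).

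Wnt11, a ligand of cell movement in the embryo that often acts without β-catenin, was measured at 5.86, 5.73, 5.80 and 5.68 in BIO and at 6.49, 6.83, 6.33 and 6.41 in vehicle. The BIO arrays were close together, and all were below the lowest vehicle array. Its difference was −0.75 ± 0.09 (SE), a 1.68-fold fall (adjusted p = 0.000318), with the largest within-pair step in pair 2 (−1.097). TCF and LEF factors, which carry β-catenin to DNA, bind sites with the core CTTTGAT. These letters were searched on both strands in the RefSeq promoter windows (assembly GRCm38.p6, 250 bases before to 50 after each start). Of 32851 windows of all genes, 3.73% held them, as did 2 of the 29 windows found for 26 of the 37 genes. Of the 13 genes that fell, 9 had a window, while Fzd8, Wnt10a, Lrp6 and Wnt5a had none and were not searched. The 2 windows with a match are shown because one belongs to a ligand that fell, and the other to the ligand Wnt5b, which did not pass. Capitals mark the match, and the sequences run 5′ to 3′ along the gene. The match in the Wnt11 window shown (chr7:98834862-98835161, plus strand) is on the opposite strand and begins 51 bases before that start. The other Wnt11 window (chr7:98838595-98838894, plus strand) held no match. In the Wnt5b window (chr6:119449337-119449636, minus strand) the match begins 71 bases before one of the 3 annotated starts.
Wnt11: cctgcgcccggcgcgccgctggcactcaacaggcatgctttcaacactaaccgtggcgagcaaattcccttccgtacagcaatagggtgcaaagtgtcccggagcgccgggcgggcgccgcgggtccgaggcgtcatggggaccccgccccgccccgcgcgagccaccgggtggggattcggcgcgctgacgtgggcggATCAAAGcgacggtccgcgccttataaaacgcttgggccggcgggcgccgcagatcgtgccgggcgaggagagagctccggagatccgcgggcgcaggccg
Wnt5b: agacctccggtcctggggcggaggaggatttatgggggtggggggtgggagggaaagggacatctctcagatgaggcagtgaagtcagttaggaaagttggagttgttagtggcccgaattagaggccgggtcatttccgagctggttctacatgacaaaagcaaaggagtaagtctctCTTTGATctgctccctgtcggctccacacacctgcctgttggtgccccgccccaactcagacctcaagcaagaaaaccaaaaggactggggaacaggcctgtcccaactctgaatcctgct
A match describes letters in a window and is no evidence of binding.

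Wnt5a, the prototype ligand of β-catenin-independent signalling and a partner of Ror1 and Ror2, read 7.06, 7.29, 6.94 and 6.92 in BIO, against 7.26, 7.62, 7.53 and 7.60 in vehicle. BIO array 2 was above vehicle array 1, so the groups overlapped, although the BIO array was the lower one in each pair. Its difference was −0.45 ± 0.08 (SE, adjusted p = 0.00328). Its paralog Wnt5b stayed between 5.05 and 5.26 in BIO and between 4.98 and 5.18 in vehicle (0.07 ± 0.05, adjusted p = 0.375). Wnt5b averaged 5.13 over all arrays, near the olfactory receptor level of 4.83, so a change in it may be understated.

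Wnt4, a ligand needed for the zona glomerulosa of the adrenal cortex and for female gonad development, gave 6.70, 6.62, 6.74 and 7.05 in BIO and 6.79, 6.95, 7.15 and 7.53 in vehicle. The groups overlapped, and the fall was seen within pairs (−0.33 ± 0.07, SE, adjusted p = 0.00577). Wnt6, a ligand known from kidney tubule formation, likewise overlapped, with 5.97, 5.67, 6.19 and 6.14 in BIO and 6.19, 5.91, 6.46 and 6.87 in vehicle (−0.37 ± 0.09, SE, adjusted p = 0.0112). Pair 4 stood out for Wnt6, with a step of −0.735 beside −0.222, −0.247 and −0.270. Wnt9a is a ligand of joint formation. Its values, 6.47, 6.70, 6.57 and 6.63 in BIO against 6.79, 7.05, 6.83 and 6.73 in vehicle, did not overlap, by a narrow margin (−0.26 ± 0.05, SE, adjusted p = 0.00742). With the block left out, the calls of Wnt4 and Wnt6 were lost (adjusted p = 0.163 and 0.212). The methods' paired t-test stands for the authors' deposited p-values, adjusted over the same genes. It lost the calls of Wnt4, Wnt5a, Wnt6 and Wnt9a (adjusted p = 0.101, 0.0978, 0.153 and 0.0799).

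Several Wnt genes lie side by side in the genome, an arrangement known to be old in animals. In the RefSeq gene table, 4 pairs of the ligand genes had no protein-coding gene between them. Wnt6 and Wnt10a on chromosome 1 both fell (−0.37 and −0.90). In the pair Wnt3a and Wnt9a on chromosome 11, Wnt9a fell (−0.26) and Wnt3a did not pass (−0.08). Neither member passed in the pairs Wnt9b and Wnt3 on chromosome 11 (−0.08 and −0.13) and Wnt10b and Wnt1 on chromosome 15 (−0.14 and −0.16).

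**Figure D2:**
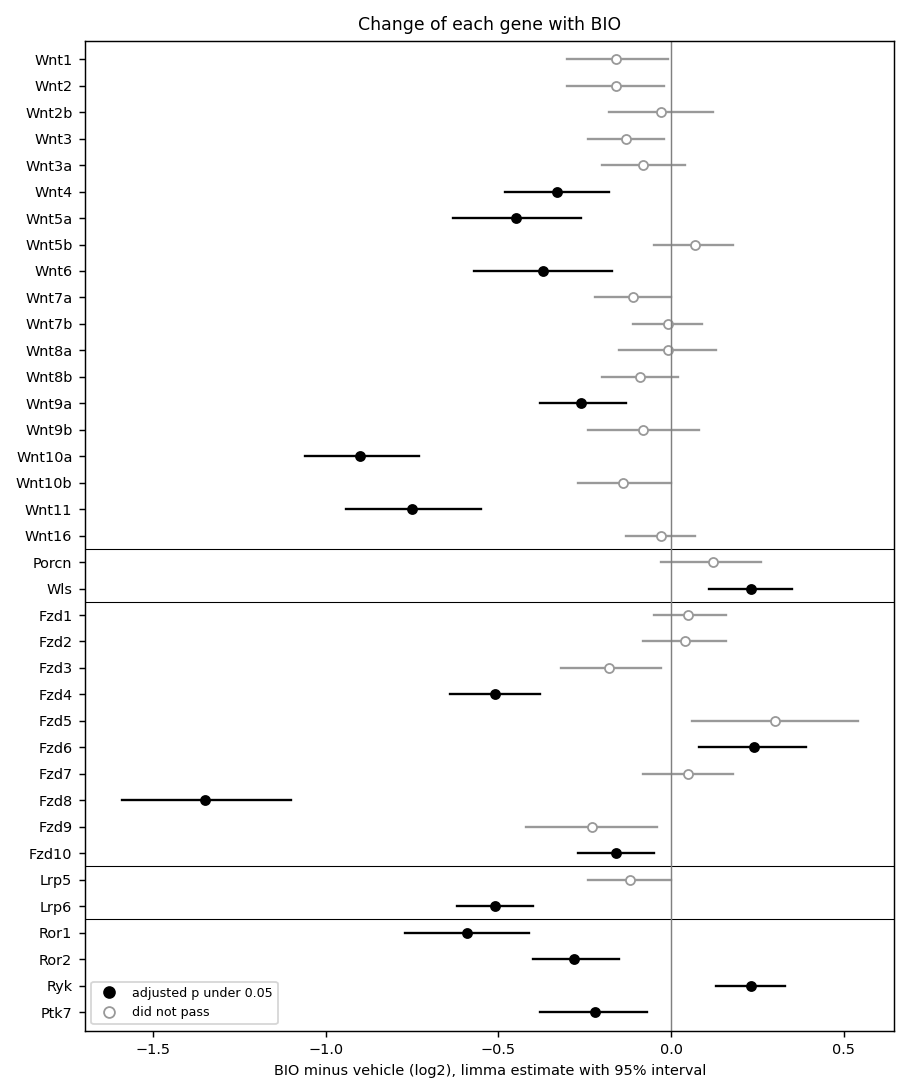
Difference between BIO and vehicle (x axis, log2) for each of the 37 genes (y axis, grouped by role), as the limma estimate with its 95% interval, which is not adjusted for the number of genes. Filled black points passed an adjusted p of 0.05 and open grey points did not. Fzd8 lies farthest left, at −1.35, and the 3 genes that rose lie between 0.23 and 0.24.

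Wls, the carrier that takes lipid-bearing Wnts to the surface, rose slightly. Its values were 10.50, 10.46, 10.49 and 10.51 in BIO and 10.26, 10.10, 10.30 and 10.40 in vehicle. No BIO array was as low as any vehicle array, and the BIO arrays were nearly alike. The difference was 0.23 ± 0.05 (SE, adjusted p = 0.0111), a 1.17-fold rise, which the methods' paired t-test did not pass (adjusted p = 0.0829). Porcn, the acyltransferase that acts before it, read 6.79, 6.77, 6.73 and 6.75 in BIO and 6.85, 6.51, 6.48 and 6.73 in vehicle. The groups overlapped, and Porcn did not pass (0.12 ± 0.06, SE, adjusted p = 0.222).

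The Frizzled receptors differed in direction: Fzd8, Fzd4 and Fzd10 fell, Fzd6 rose and 6 did not pass. The only rise, of Fzd6, was lost in several alternatives, as given below. All 10 were above the olfactory receptor level, and 40% of them passed, where 45.8% of all genes above it did. By direction, 30% fell, where 21.3% of all genes above it fell. Fzd8 had the largest difference of the 37 genes. It read 7.56, 7.62, 7.27 and 7.39 in BIO, against 8.62, 8.72, 8.95 and 8.94 in vehicle. The groups lay a full log2 unit apart at their nearest arrays. The difference was −1.35 ± 0.10 (SE), a 2.54-fold fall (adjusted p = 4.21e-05), and the steps in pairs 3 and 4 (−1.678 and −1.549) exceeded those in pairs 1 and 2 (−1.061 and −1.093).

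Fzd5, the closest relative of Fzd8 among the Frizzleds, did not fall. Its values were 8.67, 8.09, 9.01 and 9.16 in BIO and 8.39, 8.21, 8.58 and 8.55 in vehicle. BIO array 2 was the lowest of all 8, while the other BIO arrays were above every vehicle array. Fzd5 did not pass (0.30 ± 0.10, SE, adjusted p = 0.0584), and without replicate 2 it did (0.441, adjusted p = 0.00352). In each pair the change of Fzd8 lay below that of Fzd5, by −1.34, −0.97, −2.11 and −2.16 (mean −1.65 ± 0.59, SD, n = 4 pairs). The two-sided exact sign-flip test gave p = 0.125 (0.125 adjusted over 3 such comparisons of related receptors). This is the smallest p that 4 pairs allow, so none of the 3 comparisons could have passed by that test.

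Fzd4, a receptor of retinal vessel growth that also binds Norrin, read 7.56, 7.36, 7.47 and 7.54 in BIO, against 7.92, 8.02, 8.00 and 8.01 in vehicle. The groups did not overlap, and the vehicle arrays were close together. Its difference was −0.51 ± 0.06 (SE), a 1.42-fold fall (adjusted p = 0.000271). Fzd10, of the same subfamily as Fzd4, ranged between 6.35 and 6.69 in BIO and between 6.46 and 6.89 in vehicle (−0.16 ± 0.05, SE, adjusted p = 0.0293). Its groups overlapped, and the fall was a small step present in each pair.

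Fzd6, a receptor known for planar polarity of hair and skin, gave 7.01, 7.15, 6.54 and 6.34 in BIO and 6.72, 6.74, 6.29 and 6.35 in vehicle. The groups overlapped widely, as pairs 1 and 2 were higher than pairs 3 and 4 in both. It rose by 0.24 ± 0.07 (SE, adjusted p = 0.0297), with no step in pair 4 (−0.008). The calls of Fzd6 and Fzd10 were both lost without the block (adjusted p = 0.418 and 0.337), by the methods' paired t-test (0.187 and 0.0715), and without replicate 1 (0.107 and 0.0958), 2 (0.113 and 0.1) or 3 (0.0965 and 0.0631). Cyclic loess lost that of Fzd6 (0.061) and an intensity trend with a robust prior that of Fzd10 (0.0555).

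Fzd7, a receptor often linked to stem and tumour cells, read 10.04, 9.95, 9.92 and 9.69 in BIO and 9.86, 9.96, 9.81 and 9.80 in vehicle. The groups overlapped, and the 95% interval of the difference ran from −0.08 to 0.18 log2. Fzd1 gave 7.90, 7.94, 7.68 and 7.77 in BIO and 7.79, 7.89, 7.70 and 7.69 in vehicle, with an interval of −0.05 to 0.16. The same arrays gave 7.72, 7.80, 7.49 and 7.68 for Fzd2 in BIO and 7.79, 7.81, 7.40 and 7.53 in vehicle, with an interval of −0.08 to 0.16. These 3 receptors form one subfamily, and none of them passed (adjusted p = 0.587, 0.434 and 0.633).

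Fzd3, a receptor of axon guidance, read 7.92, 7.78, 7.96 and 7.99 in BIO and 7.86, 8.02, 8.26 and 8.22 in vehicle. BIO was lower in pairs 2 to 4 and not in pair 1, and the gene did not pass (−0.18 ± 0.06, SE, adjusted p = 0.0727), but did so with cyclic loess (0.0273) and without replicate 1 (0.0104). Fzd9, the last member of the Fzd4 and Fzd10 subfamily, ranged between 5.89 and 6.35 in BIO and between 6.25 and 6.49 in vehicle (−0.23 ± 0.08, SE, adjusted p = 0.0662), and passed with cyclic loess (0.0399) and without replicate 3 (0.0291).

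**Figure D3:**
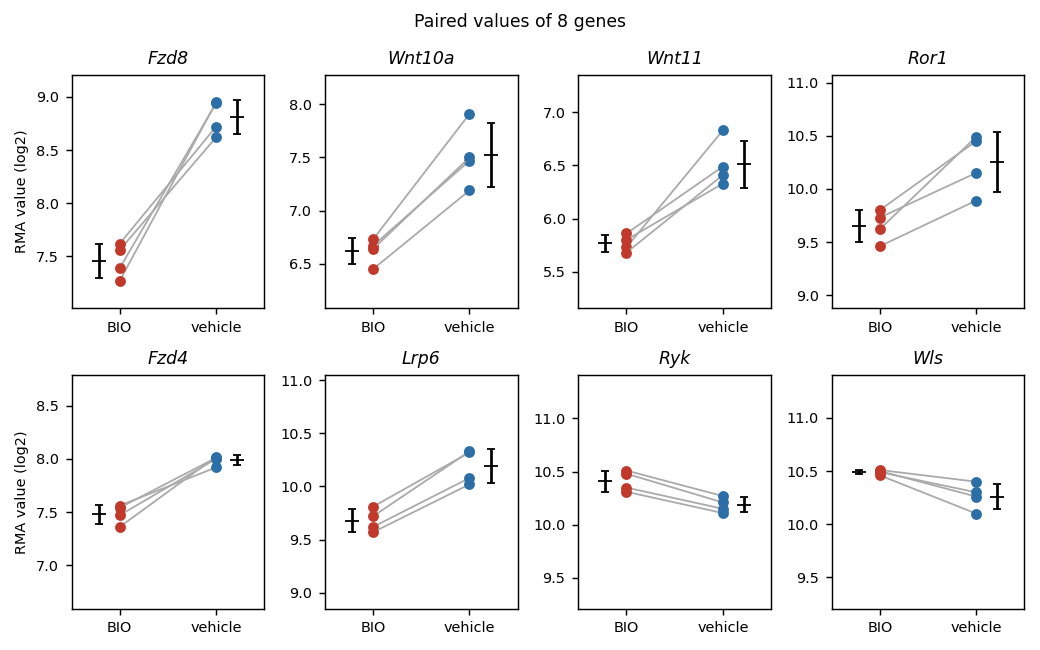
RMA values (log2, y axis) of 8 genes on the 4 BIO arrays (red, left) and the 4 vehicle arrays (blue, right), with a line for each pair and, beside the points, the mean ± SD of each group (n = 4). Each panel spans the same range of log2 units. Fzd8, Wnt10a, Wnt11, Ror1, Fzd4 and Lrp6 are lower in BIO in 4 of 4 pairs, and Ryk and Wls are higher.

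Of the coreceptors, Lrp6 fell. It read 9.62, 9.57, 9.72 and 9.81 in BIO, against 10.08, 10.02, 10.33 and 10.32 in vehicle. The groups did not overlap, and the steps within pairs were alike (−0.451 to −0.608). The difference was −0.51 ± 0.05 (SE), a 1.42-fold fall (adjusted p = 9.89e-05). Lrp5, its close paralog, gave 8.97, 8.87, 8.90 and 8.91 in BIO and 8.94, 9.11, 9.06 and 9.02 in vehicle. BIO was lower in 3 of 4 pairs, and Lrp5 did not pass (−0.12 ± 0.05, SE, adjusted p = 0.129). The change of Lrp6 was lower than that of Lrp5 in each pair, by −0.49, −0.21, −0.45 and −0.40 (mean −0.39 ± 0.12, SD, n = 4 pairs, two-sided exact sign-flip p = 0.125, adjusted p = 0.125).

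All 4 kinase-like receptors passed: Ror1, Ror2 and Ptk7 fell, and Ryk rose. The 4 were above the olfactory receptor level, where 45.8% of all genes passed and 21.3% fell. Ror1, a receptor of Wnt5a found mainly in embryos and tumours, read 9.73, 9.46, 9.62 and 9.80 in BIO, against 10.15, 9.89, 10.49 and 10.45 in vehicle. The groups did not overlap, and the difference was −0.59 ± 0.08 (SE), a 1.51-fold fall (adjusted p = 0.000603). Ror2, a Wnt5a receptor of skeletal development, gave 8.17, 8.15, 8.20 and 8.17 in BIO and 8.47, 8.30, 8.44 and 8.59 in vehicle. Its BIO arrays were nearly alike and all below the vehicle arrays (−0.28 ± 0.05, SE, adjusted p = 0.00466). Ror1 fell further than Ror2 in each pair, by −0.12, −0.28, −0.62 and −0.23 (mean −0.31 ± 0.22, SD, n = 4 pairs, two-sided exact sign-flip p = 0.125, adjusted p = 0.125). The methods' paired t-test passed neither Ror1 nor Ror2 (adjusted p = 0.0554 and 0.0678).

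Ptk7, a pseudokinase of planar cell polarity, read 7.52, 7.43, 7.40 and 7.36 in BIO and 7.62, 7.91, 7.54 and 7.54 in vehicle. The groups were apart only narrowly, and pair 2 gave the largest step (−0.478). Its difference was −0.22 ± 0.07 (SE, adjusted p = 0.0348). That call was lost without the block (adjusted p = 0.084), by the methods' paired t-test (0.196), and without replicate 2 (0.0988), 3 (0.0648) or 4 (0.0702). Ryk, a Wnt receptor with an inactive kinase domain, moved the other way, with 10.31, 10.35, 10.48 and 10.51 in BIO and 10.11, 10.15, 10.21 and 10.27 in vehicle. No BIO array was as low as any vehicle array, and the steps were even (0.197 to 0.278). The rise was 0.23 ± 0.04 (SE), or 1.17-fold (adjusted p = 0.00412).

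**Figure D4:**
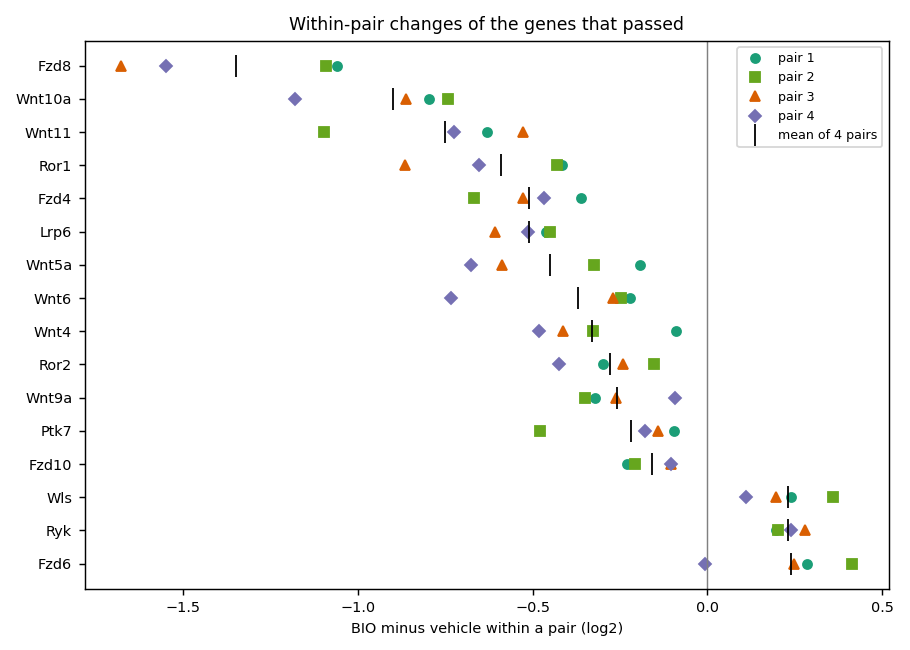
Change within each pair (BIO minus vehicle, log2, x axis) for the 16 genes that passed (y axis, ordered by the mean change), with a symbol for each pair and a black tick for the mean of 4 pairs. Fzd8, Ror1 and Wnt5a show pairs 3 and 4 left of pairs 1 and 2, and Fzd6 shows pair 4 at −0.008.

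The size of the falls was uneven over the pairs. Fzd8, Lrp6, Ror1, Wnt10a, Wnt4, Wnt5a and Wnt6 fell further in both pair 3 and pair 4 than in either of pairs 1 and 2, which is 7 of the 13 genes that fell (53.8%), where 26.4% of all 3236 genes that fell did so. Fzd10 and Wnt9a fell further in pairs 1 and 2 (15.4%, and 17.1% of all genes that fell). Neither count required a minimum gap. The gap was small for Wnt6 (−0.270 in pair 3 against −0.247 in pair 2) and Lrp6 (−0.514 in pair 4 against −0.461 in pair 1). The arrays of pairs 1 and 2 also stood apart from those of pairs 3 and 4 over all genes: the deviations of BIO and vehicle arrays from their group means correlated at 0.243 to 0.578 inside these blocks of pairs 1 and 2 and at 0.277 to 0.617 inside those of pairs 3 and 4, and at −0.504 to −0.214 across them. What sets the blocks apart is not given in the labels, and its part in these values was not tested.

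The deposited workbook also covers another experiment, headed as 3 Wnt against 4 SF1 samples, which are not analysed here beyond the printed values. In the authors' deposited table, 5 of the 37 genes (13.5%) had an unadjusted p below 0.05 there, where 12.9% of all genes did. Wnt4 had a Wnt over SF1 ratio of 2.10 (p = 0.00847) in the authors' deposited table, and Lrp6 a ratio of 1.62 (p = 0.013). The authors' deposited table further gave ratios of 1.27 for Ror1 (p = 0.048), 1.16 for Wnt10b (p = 0.00443) and 0.756 for Fzd8 (p = 0.0242). Of these, Wnt4, Lrp6, Ror1 and Fzd8 fell with BIO, and Wnt10b did not pass.

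Other parts of the Wnt pathway held calls in both directions, at shares to be read beside those of all genes (17% rose, 15.6% fell). Of 32 regulators that act at the ligand or receptor, 5 rose (15.6%), 10 fell (31.2%) and 17 did not pass, with a median of −0.03. The secreted antagonist Dkk1 averaged 4.73 ± 0.09 in BIO and 7.41 ± 0.73 in vehicle (SD, n = 4; limma adjusted p = 4.59e-05). Its BIO mean was below the olfactory receptor level of the BIO group (4.86), so the arrays give no exact size for its fall. The secreted antagonist Sfrp4 fell (−2.02 ± 0.08, SE, adjusted p = 2.09e-06), and Rnf43, the ligase that removes Frizzled and Lrp6 from the surface, rose (1.02 ± 0.09, adjusted p = 6.1e-05). Of 28 intracellular components, 5 rose, 3 fell and 20 did not pass, with a median of 0.02. The 8 calls are 28.6% of that list, below the 32.7% of all genes. Axin2 (3.02 ± 0.07, SE, adjusted p = 2.22e-07), the transcription factor Tcf7 (1.01 ± 0.05, adjusted p = 4.05e-06) and the inhibitor Nkd1 (0.69 ± 0.11, adjusted p = 0.00203) rose most.

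Ctnnb1, which encodes β-catenin, was at 11.29 ± 0.03 in BIO and 11.50 ± 0.06 in vehicle (SD, n = 4; limma adjusted p = 0.0125, but 0.0689 without replicate 3 and 0.0667 by the methods' paired t-test). The 2 GSK3 genes did not pass, with Gsk3a at 11.07 ± 0.02 in BIO and 10.99 ± 0.05 in vehicle and Gsk3b at 9.95 ± 0.02 in BIO and 9.94 ± 0.07 in vehicle (SD, n = 4; limma adjusted p = 0.201 and 0.795). With the mean of all its probe sets, Gsk3a did pass (0.172, adjusted p = 0.0164).

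Of 28 measured genes of planar polarity and other β-catenin-independent signalling, 8 fell, 1 rose and 19 did not pass, with a median of −0.08. The 9 calls are 32.1% of that list, close to the 32.7% of all genes. By direction, 28.6% of the list fell and 3.57% rose, where 15.6% of all genes fell and 17% rose. The calcium-dependent kinase genes Camk2g (−0.50 ± 0.05, SE, adjusted p = 9.78e-05) and Camk2d (−0.48 ± 0.04, adjusted p = 8.86e-05) and the formin gene Daam1 (−0.41 ± 0.08, adjusted p = 0.00344) differed most. The methods' paired t-test did not pass Nkd1 or Daam1 (adjusted p = 0.0961 and 0.095).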

How the data were processed

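RNA (250 ng per sample, from 250000 cells) was read on 1 array per sample. Values deposited by the authors are on the log2 scale, computed by RMA in the oligo package from perfect-match probes, per the file headers and the submitters' processing notes. The sources used here give no tool version, array batch or genome build. RMA compresses low signals. Of 28944 probe sets, 23812 had a symbol (annotation of the authors, per the file headers), and the probe set with the highest mean was kept for each of 20719 symbols. The authors also deposited unadjusted p-values of a paired t-test with fold ratios for BIO over vehicle. For another experiment they deposited p-values headed as a t-test, with no mention of pairing, and fold ratios. The deposited p-values of the paired t-test were adjusted over all genes as an alternative, and the test itself was not rerun. The other alternatives were no block, cyclic loess, and an intensity trend with a robust prior. Filters on dim genes, the mean of all probe sets, and leaving out each pair were also used.

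limma 3.58.1 (lmFit, eBayes; R 4.3.3) tested the difference of BIO and vehicle within pairs (pair as a block), with Benjamini-Hochberg adjustment over all genes (8.07 degrees of freedom). The pairing comes from the titles. After subtracting group means, arrays with the same number correlated at 0.446, 0.578, 0.385 and 0.617. Arrays with different numbers correlated at 0.284 and 0.243 in pairs 1 and 2, and at 0.277 and 0.392 in pairs 3 and 4. These values therefore do not settle the single pairs. Arrays correlated at 0.9948 to 0.9986 within groups, and none duplicated another. The number of arrays limits the precision. The procedure was also run on simulated data, with noise drawn from the fitted model and few changed genes. Such a run cannot show how well the model suits these data. Per-array values are given for members that passed and for bright members that did not. The exception is Fzd10, the smallest difference among members that passed, which is given by its ranges. Axin2, Ctnnb1, Gsk3a and Gsk3b, and the 3 greatest differences among the called genes of each pathway list, are also named. Members and lists were chosen with earlier results of these data known. All 37 gene identifiers matched the RefSeq table of assembly GRCm38.p6, whose promoter sequences are printed. Prickle4 and Dact2, of the lists, had no probe set under a matching name.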

Additional observations from a re-analysis of the deposited data

Results flagged for a closer look

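Within each group of 4 arrays, the highest or lowest array was checked with Dixon's test in the 74 groups that the 37 genes form. Chance flags about 1 in 20 groups, and 3 groups were found, all of dim ligands that did not pass. Wnt10b read 4.32 on BIO array 4, below the 4.53 to 4.54 of the other 3. Wnt8a read 4.77 on vehicle array 2, above the 4.61 to 4.63 of the others. Wnt9b read 4.97 on vehicle array 4, above the 4.61 to 4.67 of the others.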

How the results depend on the processing

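Wnt10a, Wnt11, Fzd4, Fzd8, Lrp6 and Ryk, 6 of the 16 genes that passed, did so under all 11 alternatives. The mean of all probe sets could not change the values of the 37 genes, as each has 1 probe set. That setting and the filters on dim genes lost none of the 16 calls. By the methods' paired t-test, Wnt11 passed narrowly (adjusted p = 0.0492). The methods' paired t-test passed 3947 of all 20719 genes, against 6767 by limma with the block. Of the 37 genes it passed 5 as lower and 1 as higher, against 13 and 3. By that t-test the 37 genes thus passed at a smaller share than all genes. By limma with the block their share was the larger (43.2% against 32.7%). That t-test passed 8 receptor-level regulators and 5 intracellular components, against 15 and 8, while cyclic loess passed 11 intracellular components. Of the β-catenin-independent genes, 6 passed by that t-test and 6 without replicate 3, against 9. With no replicate block, 9 of the 37 were lower and 2 higher, and 5023 genes passed in all. Leaving out each pair in turn gave 11 to 15 lower and 2 to 3 higher. Cyclic loess turned the sign of Wnt8a (0.008) and Fzd2 (−0.011). Leaving out each pair in turn, the estimate crossed 0 for Wnt2b (−0.096 to 0.028), Wnt7b (−0.038 to 0.001), Wnt8a (−0.064 to 0.057), Wnt9b (−0.135 to 0.002) and Gsk3b (−0.003 to 0.034), and none of these passed in any of those fits. Wnt1 and Wnt2 passed without replicate 1 (adjusted p = 0.0391 and 0.0217). With no detection call, the reading of the 11 dimmest ligands is limited by signal over background.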

Other observations

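The BIO arrays were more alike than the vehicle arrays for 24 of the 37 genes (64.9%), where that held for 58.1% of all genes. The median SD was 0.099 log2 in BIO and 0.141 log2 in vehicle for the 37 genes, and 0.080 in BIO and 0.091 in vehicle for all genes. Porcn (SD 0.03 in BIO and 0.18 in vehicle), Wls (0.02 in BIO and 0.12 in vehicle) and Ror2 (0.02 in BIO and 0.12 in vehicle), named after their values were seen, had the clearest such contrast among the genes above the olfactory receptor level. The difference in spread was not tested.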
